A study of Mus musculus with 4 samples.

Results

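The 9 genes described here, *Thbs1*, *Thbs2*, *Tnc*, *Postn*, *Fn1*, *Sparc*, *Spp1*, *Efemp1* and *Ecm1*, encode secreted glycoproteins of the extracellular matrix (ECM) that are not collagens. They were taken by symbol, and all 9 were found among the 28693 genes of the single-cell count tables from mouse mammary glands. Their unique molecular identifiers (UMIs) were summed per library in marker-named cell classes, so that the cells carrying each transcript could be ranked in CTL and LATS1/2-KO glands. Since RNA set free from broken stromal cells enters the droplets of every cell, each level in the epithelium was set beside the level that such free RNA would give.

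The 4 libraries came from 4 mice, with 2 in each group. CTL mice (labelled WT) were homozygous for floxed *Lats1* and *Lats2* (f/f) and heterozygous for the reporter R26-lsl-EYFP, without Cre. LATS1/2-KO mice carried the same floxed alleles with Krt8-CreERT2, and their reporter allele was heterozygous in replicate 1 and homozygous in replicate 2. Mice of both groups received 2 mg of tamoxifen in corn oil on 5 days, and glands were taken 7 days after the last dose from adult nulliparous animals whose single ages the labels do not give. In the LATS1/2-KO model the *Krt8* promoter restricts Cre to luminal cells and *EYFP* marks recombined cells, so that basal and stromal cells were not the target of the deletion. Live cells of all kinds were sorted on Calcein Blue without selection of a lineage.

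After removal of cells with 500 or fewer genes or with 20% or more of their UMIs from mitochondrial genes, CTL replicates 1 and 2 held 4914 and 3515 cells with 46810771 and 42630666 UMIs, and LATS1/2-KO replicates 1 and 2 held 4499 and 5272 cells with 38792520 and 44758376 UMIs. The median cell held 7443.5 and 10141 UMIs in the CTL libraries, against 6724 and 5962.5 in the LATS1/2-KO libraries. Pairs of libraries shared between 4 and 12 cell barcodes. Of the targeted genes, *Lats1* had 25.6 and 25.3 CPM (the usual scaling of counts, here UMIs of a gene over all UMIs of the class in that library) in CTL luminal ER- cells and 14.1 and 16.7 in LATS1/2-KO, whereas *Lats2* had 15.0 and 16.7 in CTL and 29.1 and 31.1 in LATS1/2-KO. *Lats1* was lower and *Lats2* higher in both LATS1/2-KO libraries. The deleted exons are not given in the sources used here, and a 3' tag outside them checks nothing about the deletion. *EYFP* stood at 0.306 and 0.369 CPM in CTL and 87.7 and 129 in LATS1/2-KO luminal ER- cells. In LATS1/2-KO it was 24.1 and 55.4 CPM in luminal ER+ cells and 6.96 and 16.0 in basal cells.

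Matricellular proteins are secreted into the matrix and act on cell adhesion and signalling more than on the strength of the tissue. Cells bind them through integrins, syndecans and CD44, and they are abundant in developing, wounded and tumour stroma. In the mammary gland the basal cells and fibroblasts lay down most of the matrix that surrounds the ducts, and fibronectin and tenascin-C are known for their deposition in the reactive stroma of carcinomas.

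Cells were grouped by clustering without the 9 genes and clusters were named from marker lists. The iCAF-like and myCAF-like classes are fibroblasts with markers of inflammatory and myofibroblastic cancer-associated fibroblasts, and PVL-like cells carry perivascular markers. Luminal ER- cells numbered 2942 and 2109 in CTL and 2496 and 2638 in LATS1/2-KO, luminal ER+ cells 1400 and 1043 and 478 and 139, and basal cells 196 and 158 and 365 and 470. There were 58 and 25 iCAF-like cells in CTL and 125 and 743 in LATS1/2-KO, whereas myCAF-like cells numbered 2 and 0 in CTL and 208 and 230 in LATS1/2-KO. CTL macrophages, 10 in each library, and the CTL myCAF-like and PVL-like cells were too few for a test, which required 20 cells per library. The LATS1/2-KO macrophage class of replicate 2 held the 4 neutrophil markers at a summed 5476 CPM against 564 in replicate 1. *S100a8* was the most abundant, and the part of these markers in the macrophage values was not tested. The macrophage cluster, 793 cells in all, raised 9 macrophage and 4 fibroblast markers. At clustering resolution 0.8 the macrophage cluster held 574 cells, and a cluster of 220 cells was left unnamed (median 1058.5 UMIs). The unnamed cluster, with 95 and 119 LATS1/2-KO cells, raised 9 macrophage and 8 fibroblast markers. The part of fibroblast transcripts in the macrophage values was not tested.

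Different clusters held most of each epithelial class in the 2 groups. Luminal ER- cells lay in a cluster led by *Plet1* and *Cck* in CTL, and in LATS1/2-KO in clusters led by *Wfdc3* and *Wfdc18*, by *Ankrd1* and *Ube2c*, and by *Ptgs2* and *Msln*. The lineage of the last is not settled, since its 780 cells raised 6 luminal ER-, 5 basal, 4 fibroblast and 3 macrophage markers. At resolution 0.8 a cluster of 386 cells with the same leading genes raised 4 basal and 2 luminal ER- markers and was named basal. Another cluster at that resolution, also led by *Gm26917* and *Agrn*, held 392 cells (median 1671.5 UMIs). It raised 7 fibroblast, 6 luminal ER- and 6 basal markers and was left without lineage. The part of fibroblast or macrophage transcripts in the *Ptgs2*/*Msln* values was not tested. Luminal ER+ cells lay mostly in a *Ptn*/*Fxyd2* cluster in CTL and in an *Areg*/*Plac8* cluster in LATS1/2-KO, and basal cells in a *1500015O10Rik*/*Cxcl14* and a *Krt5*/*Slpi* cluster. The 9 basal markers summed to 34.3 and 26.6 CPM in CTL luminal ER- cells and to 1713 and 1405 in LATS1/2-KO ones, with *Krt14* the most abundant in the latter, and how far this moved with the values below was not tested. The fibroblast markers, 8 in number and all detected, summed there to 27.5 and 12.1 CPM in CTL and to 239.4 and 233.1 in LATS1/2-KO, led by *Dcn* in CTL and by *Col3a1* and *Col1a1* in LATS1/2-KO.

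In edgeR's quasi-likelihood test, with p-values adjusted over all genes by Benjamini-Hochberg and a threshold of 0.05, 8 of 9 tested members rose in luminal ER- cells, where 64.3% of 13677 genes were called. For all of these but *Thbs1* the log2 fold change was 4.08 or more, and with cells assigned by markers in each cell it was lower for *Fn1* (5.29), *Tnc* (4.004) and *Efemp1* (2.64). The count was 6 of 8 in luminal ER+ cells, all higher, with 27.3% of 12488 genes called, and 6 of 8 in basal cells, all higher, with 32.8% of 9333 genes called. In all fibroblasts together 4 of 9 were called, 3 higher and 1 lower, against 3.50% of 8679 genes. Among iCAF-like cells alone it was 2 of 9, 1 in each direction, against 13.0% of 5722 genes. Endothelial cells had 4 of 8 called, 3 higher and 1 lower, against 6.83% of 7568 genes, and lymphocytes 3 of 4, all higher, against 1.71% of 3916 genes. Since 64.3% of all genes were called in luminal ER- cells, the count there says little about the members, and their size and source are described below. With 2 mice a group, an exact permutation test of a single value cannot go below 0.33, and the labels do not say whether the mice shared a litter or a day.

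**Figure D1:**
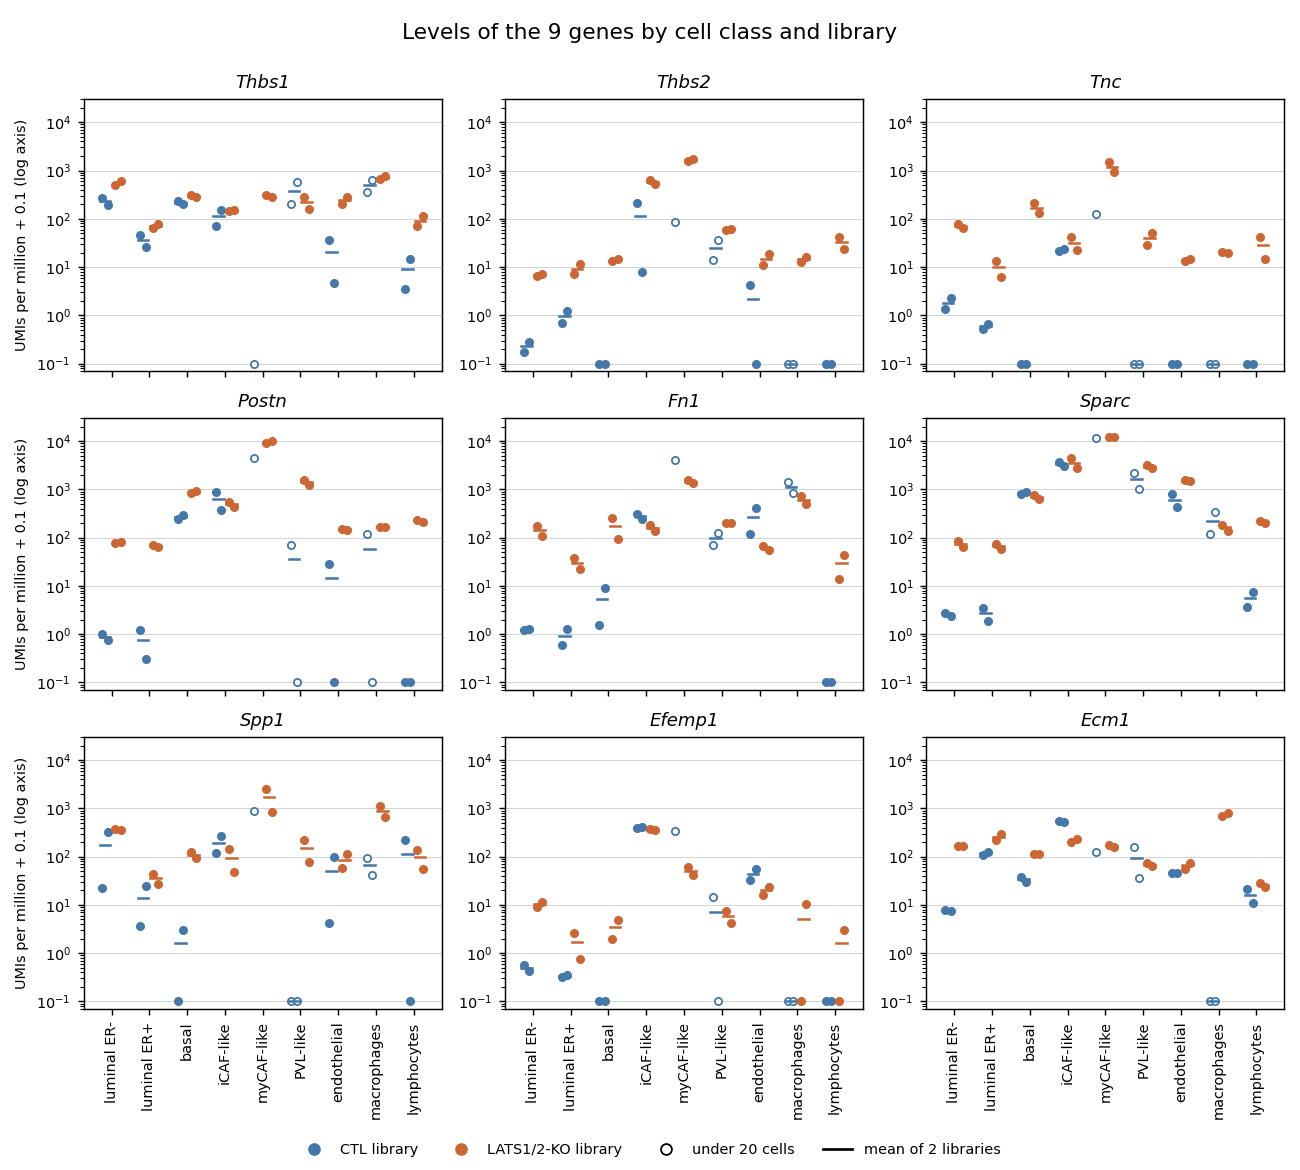
Level of each gene (CPM plus 0.1, log axis) in 9 cell classes, with points for libraries (CTL blue, LATS1/2-KO orange, open under 20 cells) and lines for means. The LATS1/2-KO points of *Postn*, *Sparc* and *Thbs2* are highest in myCAF-like fibroblasts, those of *Efemp1* in iCAF-like fibroblasts and those of *Thbs1* and *Ecm1* in macrophages.

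*Fn1* encodes fibronectin, the adhesive glycoprotein that cells assemble into fibrils through integrins. In luminal ER- cells it stood at 1.15 and 1.15 CPM in CTL and at 175 and 108 in LATS1/2-KO. Both LATS1/2-KO libraries lay far above both CTL libraries, and *Fn1* rose with a log2 fold change of 6.57 (SE 0.31, edgeR, Benjamini-Hochberg adjusted p = 7.15e-06). Luminal ER+ cells held 0.484 and 1.18 CPM in CTL and 37.1 and 22.7 in LATS1/2-KO (log2 fold change 5.20, SE 0.41, edgeR adjusted p = 0.00132, Benjamini-Hochberg). These LATS1/2-KO levels were between 1.87 and 1.97 times the free RNA expectation. Basal cells held 1.43 and 8.93 CPM in CTL, from 1 and 6 UMIs, and 260.2 and 92.2 in LATS1/2-KO (log2 fold change 4.97, SE 0.68, edgeR adjusted p = 6.01e-05, Benjamini-Hochberg). With 1 library left out this basal log2 value ranged over 4.03 to 6.75. In all 3 epithelial classes the groups did not overlap. The highest levels were not epithelial. In LATS1/2-KO *Fn1* averaged 1445 ± 165 CPM in myCAF-like fibroblasts and 610.3 ± 158 in macrophages (SD, n = 2), followed by PVL-like cells at 204 ± 1.03, basal cells at 176 ± 119, iCAF-like cells at 159 ± 29.3 and luminal ER- cells at 142 ± 47.5, and these last 4 overlapped with their neighbours in the order. Endothelial cells were the only class with a called fall of *Fn1*, from 119 and 406 CPM in CTL to 67.2 and 56.4 in LATS1/2-KO (log2 fold change -2.02, SE 0.40, edgeR adjusted p = 0.00737, Benjamini-Hochberg). The groups did not overlap there, but the call was lost when any single library was left out, with a log2 fold change of -2.67 without CTL replicate 1, -0.91 without CTL replicate 2, -2.10 without LATS1/2-KO replicate 1 and -1.86 without LATS1/2-KO replicate 2. *Fn1* was also lower without overlap in iCAF-like cells, at 314 and 239 CPM in CTL and 179.8 and 138 in LATS1/2-KO (log2 fold change -0.79, SE 0.26, edgeR adjusted p = 0.0677, Benjamini-Hochberg), where it was called only with free RNA subtracted (-0.92), and in macrophages, which were not tested, at 1438 and 837 and 722 and 498 CPM.

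By share of molecules, luminal ER- cells as named by clusters were the largest single holder of *Fn1* in LATS1/2-KO glands. Luminal ER- cells carried 49.8% and 44.0% of all *Fn1* UMIs in LATS1/2-KO replicates 1 and 2, and 9.87% and 11.5% in CTL, where the libraries held 304 and 218 *Fn1* UMIs in all. With per-cell marker assignment basal cells led in LATS1/2-KO instead (46.8% and 33.6%). myCAF-like cells carried 24.7% and 27.8% and macrophages 10.1% and 12.3% in LATS1/2-KO. The class is large, at 55.5% and 50.0% of the cells of these libraries. Within it, *Fn1* stood at 536 and 409.9 CPM in the *Ptgs2*/*Msln* cluster, 212 and 128 in the *Ankrd1*/*Ube2c* cluster and 43.1 and 29.0 in the *Wfdc3*/*Wfdc18* cluster. The first of these is a shallow cluster (median 2839.5 and 2756 UMIs per cell) whose collagen transcripts, at 616 and 457 CPM, were also the highest of the 3.

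The thrombospondins *Thbs1* and *Thbs2* encode multimeric glycoproteins that bind CD36, CD47 and integrins and restrain the growth of vessels. *Thbs1* was already an epithelial transcript in CTL, with 275 and 191 CPM in luminal ER- cells, 229.5 and 201 in basal cells and 46.2 and 26.2 in luminal ER+ cells. The LATS1/2-KO levels were 504 and 605 CPM in luminal ER-, 310.3 and 286 in basal and 64.1 and 76.8 in luminal ER+ cells, above CTL in both libraries of each class. Its rise passed the test in luminal ER- cells (log2 fold change 0.88, SE 0.18, edgeR adjusted p = 0.00407, Benjamini-Hochberg), and this call was lost when cells were assigned by markers in each cell in place of clusters (log2 fold change 0.49, edgeR adjusted p = 0.0682). It did not pass in luminal ER+ (log2 fold change 0.94, SE 0.28, edgeR adjusted p = 0.0548) or basal cells (log2 fold change 0.36, SE 0.16, edgeR adjusted p = 0.0907; edgeR, Benjamini-Hochberg). The luminal ER+ value passed when either CTL library was left out, at 1.399 without CTL replicate 1 and 0.57 without CTL replicate 2. It also passed in 5 of 9 other settings, by DESeq2 (0.94), without a low-count filter (0.88), with the replicate number as block (0.96), without the highest Scrublet scores (1.39) and with per-cell marker assignment (1.87), whereas with free RNA subtracted it was 0.098. In basal cells it passed in 3 of 9, without a low-count filter (0.47), with per-cell marker assignment (1.53) and with clusters at resolution 0.8 (1.53), and with free RNA subtracted it was 0.080.

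Macrophages had the highest mean of *Thbs1* in both groups, with 656 and 761 CPM in LATS1/2-KO and 354 and 628 in CTL, from 10 cells each. In LATS1/2-KO the order went on with luminal ER- cells at 555 ± 71.5 CPM (SD, n = 2), then basal and myCAF-like cells, which overlapped at 298 ± 16.9 and 298 ± 19.9, and endothelial cells at 243 ± 53.0. Endothelial *Thbs1* rose from 36.9 and 4.66 CPM, or 9 and 1 UMIs, to 205 and 280.3 (log2 fold change 3.52, SE 0.46, edgeR adjusted p = 0.000468, Benjamini-Hochberg). This call was lost without CTL replicate 1 (log2 fold change 5.70) and without CTL replicate 2 (2.75). Luminal ER- cells carried 86.2% and 84.0% of the *Thbs1* UMIs in CTL and 75.4% and 77.1% in LATS1/2-KO. Among their clusters the *Ptgs2*/*Msln* one was highest, at 1308 and 1637 CPM, and the others lay at 511 and 599 (*Ankrd1*/*Ube2c*) and 365 and 437 (*Wfdc3*/*Wfdc18*).

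With each cell thinned to 2000 UMIs, *Thbs1* was detected in 34.6% and 25.3% of CTL and 49.1% and 54.1% of LATS1/2-KO luminal ER- cells, and in 1.33% and 1.43% of CTL and 11.1% and 17.6% of LATS1/2-KO lymphocytes, taken here as a class without it. Without thinning the shares were 63.1% and 56.0% and 77.4% and 81.1% in luminal ER- cells, at median depths of 6789.5, 8040, 7958.5 and 8220.5 UMIs, and 1.06% and 2.53% and 14.3% and 20% in lymphocytes, at 2657.5, 3082, 1557 and 2167. Thinning left out 105, 26, 184 and 246 luminal ER- cells and 38, 9, 26 and 62 lymphocytes, so that only 9 lymphocytes remained in LATS1/2-KO replicate 1. The luminal ER- share was above the lymphocyte share in all 4 libraries.

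*Thbs2* was a fibroblast transcript in LATS1/2-KO glands. The CTL libraries held 68 and 29 *Thbs2* UMIs in all, of which iCAF-like cells carried 75.0% and 3.45% and luminal ER+ cells 16.2% and 75.9%, so that the leading class differed between them. The CTL luminal ER+ level, 0.591 and 1.13 CPM, was 13.96 and 50.9 times the expectation from free RNA. In iCAF-like cells it stood at 217 and 7.96 CPM in CTL, from 51 and 1 UMIs of which 1 cell held 33, and at 645 and 516 in LATS1/2-KO. The CTL libraries were far apart and both lay under the LATS1/2-KO libraries. *Thbs2* rose in iCAF-like cells (log2 fold change 2.22, SE 0.58, edgeR adjusted p = 0.0287, Benjamini-Hochberg), with a log2 fold change of 6.35 without CTL replicate 1 and 1.503 without CTL replicate 2, and was not called by DESeq2 (2.41, adjusted p = 0.510) or with per-cell marker assignment (2.12). Among myCAF-like cells its level was 1543 and 1744 CPM. These cells carried 76.1% and 52.4% of its UMIs in LATS1/2-KO and the iCAF-like cells 14.3% and 40.1%. Every epithelial level in LATS1/2-KO was low, at 6.43 and 7.22 CPM in luminal ER-, 6.96 and 11.4 in luminal ER+ and 13.4 and 14.3 in basal cells, and these were between 0.959 and 1.42 times the level expected from free RNA. The calls of a rise in luminal ER- cells (log2 fold change 5.35, SE 0.36, edgeR adjusted p = 2.57e-05) and luminal ER+ cells (log2 fold change 3.31, SE 0.47, edgeR adjusted p = 0.00604; Benjamini-Hochberg) therefore stand on LATS1/2-KO values at the level of free RNA. In CTL basal cells it had 0 UMIs against 71 in LATS1/2-KO, at least 6.39-fold more, with 3 counts over the group as the floor.

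*Tnc* encodes tenascin-C, a hexameric glycoprotein of developing and wounded tissue that loosens the hold of cells on fibronectin. Luminal ER- cells held 1.26 and 2.21 CPM in CTL and 78.3 and 63.9 in LATS1/2-KO. The groups were far apart and *Tnc* rose (log2 fold change 5.01, SE 0.23, edgeR adjusted p = 6.63e-06, Benjamini-Hochberg). In basal cells the count went from 0 UMIs in both CTL libraries to 453 and 379 UMIs in LATS1/2-KO, or 210.1 and 129 CPM, at least 74.9-fold more (edgeR, Benjamini-Hochberg adjusted p = 3.63e-07). *Tnc* in luminal ER+ cells was 0.430 and 0.565 CPM in CTL and 13.5 and 6.01 in LATS1/2-KO (log2 fold change 4.37, SE 0.48, edgeR adjusted p = 0.00309, Benjamini-Hochberg), the latter at 1.27 and 0.968 times the free RNA expectation.

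myCAF-like fibroblasts had the highest *Tnc* level, 1479 and 919 CPM, well above basal cells at 169.7 ± 57.1 and luminal ER- cells at 71.1 ± 10.2 (SD, n = 2). iCAF-like cells differed little between groups, with 21.2 and 23.9 CPM in CTL and 41.0 and 22.7 in LATS1/2-KO (log2 fold change 0.38, SE 0.57, edgeR adjusted p = 0.718, Benjamini-Hochberg, not called). The molecules were thus split between epithelial and stromal cells. Luminal ER- cells carried 41.7% and 48.4% of *Tnc* UMIs in LATS1/2-KO and myCAF-like cells 43.8% and 35.7%, so that the leading class differed between the 2 libraries, and basal cells carried 9.51% and 9.84%. The CTL libraries held 49 and 62 *Tnc* UMIs in all. Among luminal ER- clusters *Tnc* was 241 and 185 CPM in *Ptgs2*/*Msln*, 90.3 and 81.3 in *Ankrd1*/*Ube2c* and 27.9 and 18.7 in *Wfdc3*/*Wfdc18* cells.

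*Postn* encodes periostin, which cross-links collagen and fibronectin in growing connective tissue. It was a transcript of fibroblasts and basal cells in CTL, at 887 and 382 CPM in iCAF-like and 238 and 296 in basal cells. The LATS1/2-KO levels were 549 and 437 CPM in iCAF-like cells and 838 and 924 in basal cells. Basal values did not overlap and rose (log2 fold change 1.62, SE 0.16, edgeR adjusted p = 2.17e-06, Benjamini-Hochberg), whereas iCAF-like values overlapped (log2 fold change -0.35, SE 0.32, edgeR adjusted p = 0.522, Benjamini-Hochberg, not called). With cells assigned by markers in each cell, the basal class of LATS1/2-KO grew from 365 and 470 to 1258 and 1219 cells, and *Postn* was then lower in it than in CTL (log2 fold change -0.50, edgeR, Benjamini-Hochberg adjusted p = 0.0237). Its direction in basal cells therefore depends on which cells are counted as basal.

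*Postn* was highest by far in LATS1/2-KO myCAF-like cells, at 9055 and 10235 CPM, then in PVL-like cells at 1570.3 and 1264, where CTL held 70.7 and 0 from 18 and 7 cells. These myCAF-like cells carried 71.4% and 66.4% of its UMIs. In luminal cells it went from 0.918 and 0.646 to 75.9 and 79.8 CPM in ER- cells (log2 fold change 6.24, SE 0.16, edgeR adjusted p = 1.49e-06) and from 1.13 and 0.205 to 71.3 and 65.5 in ER+ cells (log2 fold change 6.68, SE 0.44, edgeR adjusted p = 0.000859; Benjamini-Hochberg). With 1 library left out the ER+ log2 value ranged over 5.89 to 8.29. The LATS1/2-KO luminal levels were 1.88 and 2.29 times (ER-) and 1.80 and 1.76 times (ER+) the free RNA expectation, so that neither passed 2 times in both libraries. Endothelial *Postn* showed a call as well (log2 fold change 3.31, SE 0.53, edgeR adjusted p = 0.00178, Benjamini-Hochberg), at 1.85 and 1.85 times the expectation, that was lost without CTL replicate 1 (10.08) or CTL replicate 2 (2.40) and with DESeq2 (3.37).

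*Sparc* encodes osteonectin, a calcium-binding glycoprotein that chaperones collagen. It was found across the stroma. CTL iCAF-like, PVL-like, basal and endothelial cells held 3349 ± 392, 1615 ± 855, 839 ± 65.5 and 616 ± 265 CPM (SD, n = 2), and LATS1/2-KO ones 3609 ± 1089, 2951 ± 298, 688 ± 85.4 and 1516 ± 45.0. myCAF-like cells of LATS1/2-KO stood above them at 12223 and 12398 CPM. Endothelial *Sparc* went from 804 and 429 CPM in CTL to 1548 and 1484 in LATS1/2-KO without overlap and rose (log2 fold change 1.33, SE 0.27, edgeR adjusted p = 0.00781, Benjamini-Hochberg), a call lost without CTL replicate 1 (1.86), CTL replicate 2 (0.95) or LATS1/2-KO replicate 1 (1.34). Without a low-count filter 0 endothelial genes passed adjustment, against 1654 at a raw p under 0.05, whereas DESeq2 with the filter called 270. None of the 4 endothelial calls remained without the filter (log2 fold changes -1.93 for *Fn1*, 3.61 for *Thbs1*, 3.40 for *Postn* and 1.43 for *Sparc*). In basal cells it was 793 and 885 CPM in CTL and 749 and 628 in LATS1/2-KO, lower in both libraries but not past the threshold (log2 fold change -0.39, SE 0.15, edgeR adjusted p = 0.0621, Benjamini-Hochberg), and it passed without LATS1/2-KO replicate 1 (-0.55). The fall was called in 6 of 9 other settings, with the replicate number as block (-0.40), under 10% mitochondrial UMIs (-0.41), without the highest Scrublet scores (-0.43), with free RNA subtracted (-0.88), with clusters at resolution 0.8 (-0.93) and with per-cell marker assignment (-2.40). Luminal levels of 84.4 and 62.6 CPM in ER- and 74.7 and 58.1 in ER+ cells were 1.39 and 1.14 and 1.25 and 0.990 times the free RNA expectation, and the calls there (log2 fold change 4.53 from 2.64 and 2.26 CPM, edgeR adjusted p = 6.24e-06, and 4.71 from 3.44 and 1.75 CPM, adjusted p = 0.000859; Benjamini-Hochberg) rest on such values. With free RNA subtracted, the luminal ER+ call was lost (log2 fold change 2.76, edgeR adjusted p = 0.0941).

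*Spp1* encodes osteopontin, an integrin and CD44 ligand that macrophages and secretory epithelium release. Luminal ER- cells held 22.1 and 317 CPM in CTL replicates 1 and 2 and 375 and 359 in LATS1/2-KO. CTL replicate 1 was far below the other 3 libraries, which lay close together, and no difference was called (log2 fold change 0.75, SE 0.91, edgeR adjusted p = 0.491, Benjamini-Hochberg). A rise was called in 1 of 10 other settings, the one without a low-count filter. The CTL library left in decides the value, which was 3.68 without CTL replicate 2 (edgeR adjusted p = 4.52e-08) and -0.16 without CTL replicate 1 (adjusted p = 0.394; Benjamini-Hochberg). In CTL replicate 1 the UMIs sat in few cells. The 10 cells with most *Spp1* held 60.2% and 23.8% of the luminal ER- UMIs in CTL and 13.8% and 16.7% in LATS1/2-KO. In LATS1/2-KO the *Wfdc3*/*Wfdc18* cluster stood at 936 and 829 CPM against 125 and 56.5 in *Ankrd1*/*Ube2c* and 121 and 81.0 in *Ptgs2*/*Msln* cells.

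In basal cells *Spp1* had 0 and 2 UMIs in CTL against 263 and 268 UMIs in LATS1/2-KO, at a ratio of 71.7 with a 95% counting interval of 19.8 to 594 (edgeR, Benjamini-Hochberg adjusted p = 4.79e-07), and without CTL replicate 2 the fitted log2 value was 10.67. Its basal level was 2.41 and 2.94 times the expectation from stromal free RNA, but only 1.33 and 1.74 times that from luminal free RNA, computed after the data had been seen. Luminal ER+ cells held 3.60 and 24.1 and 42.9 and 27.4 CPM (log2 fold change 1.41, SE 0.79, edgeR adjusted p = 0.229, Benjamini-Hochberg, not called), and the value without CTL replicate 2 was 3.34. The highest classes in LATS1/2-KO were myCAF-like cells at 2539 and 828 CPM and macrophages at 1133 and 646, which overlapped. CTL macrophages held 94.3 and 41.9 CPM, from 10 cells each with only 42425 and 47784 UMIs over all genes, and were not tested. In myCAF-like cells 10 cells carried 76.0% and 75.2% of the UMIs, and a single cell of replicate 1 held 1139 of 3577. Luminal ER- cells carried 62.4% and 76.4% of all *Spp1* UMIs in LATS1/2-KO and 69.5% and 92.6% in CTL.

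*Efemp1* encodes fibulin-3, a glycoprotein of elastic and basement membrane matrix, and was highest in iCAF-like cells. It stood at 391 and 414 CPM in CTL and 369 and 353 in LATS1/2-KO iCAF-like cells, and the CTL libraries were slightly higher (log2 fold change -0.10, SE 0.22, edgeR adjusted p = 0.822, Benjamini-Hochberg, not called). myCAF-like cells held 59.6 and 40.7 CPM. In luminal ER- cells it was 0.459 and 0.323 CPM in CTL, from 12 and 7 UMIs, and 8.87 and 11.4 in LATS1/2-KO, from 225 and 333, and rose (log2 fold change 4.30, SE 0.28, edgeR adjusted p = 2.21e-05, Benjamini-Hochberg) at 5.32 and 3.73 times the free RNA expectation. The epithelial cluster without lineage led by *Crct1* and *Msln*, found only in LATS1/2-KO with 157 and 116 cells, had the highest epithelial level, 72.2 and 105 CPM, with *EYFP* UMIs in 81.5% and 94.0% of its cells. Among luminal ER- clusters it was 37.9 and 59.4 CPM in *Ptgs2*/*Msln* and 1.41 and 1.84 in *Wfdc3*/*Wfdc18* cells. iCAF-like cells carried 31.7% and 67.7% of its UMIs in LATS1/2-KO and luminal ER- cells 30.5% and 16.4%. Basal cells had 0 UMIs in CTL and 4 and 14 in LATS1/2-KO, and *Efemp1* was not tested there or in luminal ER+ cells, where it had 4 and 5 and 11 and 1 UMIs.

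*Ecm1* encodes extracellular matrix protein 1, a secreted glycoprotein. In CTL it was a luminal ER+ and fibroblast transcript, at 106 and 126 CPM in luminal ER+ and 552 and 525 in iCAF-like cells, against 7.72 and 7.47 in luminal ER- cells. In LATS1/2-KO the luminal ER- level was 164 and 168 CPM, with no overlap and little spread, and *Ecm1* rose there (log2 fold change 4.08, SE 0.10, edgeR adjusted p = 1.49e-06, Benjamini-Hochberg). It also rose in luminal ER+ cells, to 216 and 289.9 CPM (log2 fold change 1.10, SE 0.16, edgeR adjusted p = 0.00622, Benjamini-Hochberg), and in basal cells, from 37.1 and 29.8 to 113 and 111 (log2 fold change 1.63, SE 0.20, edgeR adjusted p = 2.68e-05, Benjamini-Hochberg). iCAF-like cells moved the other way, to 199 and 234 CPM (log2 fold change -1.25, SE 0.23, edgeR adjusted p = 0.00570, Benjamini-Hochberg), a fall not called without CTL replicate 1 (-1.08). The largest holder of *Ecm1* UMIs was the luminal ER+ class in CTL, with 83.2% and 90.4%, and the luminal ER- class in LATS1/2-KO, with 58.9% and 56.8%. With per-cell marker assignment basal cells led in LATS1/2-KO replicate 1 (31.9%) and luminal ER- cells held 32.3% in replicate 2. By level in CPM, LATS1/2-KO macrophages ranked first at 678 and 786 CPM, while the 20 CTL macrophages held no *Ecm1* UMI. Its level hardly differed among luminal ER- clusters, with 168 and 170.4 CPM in *Wfdc3*/*Wfdc18*, 159 and 164 in *Ankrd1*/*Ube2c* and 199.96 and 187 in *Ptgs2*/*Msln* cells.

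Over all fibroblasts, which compare mostly iCAF-like cells of CTL with a mixture of iCAF-like and myCAF-like cells of LATS1/2-KO, *Tnc* (log2 fold change 4.58, edgeR adjusted p = 0.0162), *Thbs2* (3.19, adjusted p = 0.0468) and *Postn* (2.62, adjusted p = 0.0361) rose and *Ecm1* fell (-1.31, adjusted p = 0.0361; Benjamini-Hochberg). The libraries stood at 30.8 and 23.9 and 1033 and 272 CPM for *Tnc*, 204 and 7.96 and 1264 and 858 for *Thbs2*, 1218 and 382 and 6414 and 3167 for *Postn*, and 513 and 525 and 181 and 213 for *Ecm1*, CTL before LATS1/2-KO. Groups did not overlap for these 4 genes. Without CTL replicate 1 the values were 4.96, 7.26, 3.86 and -1.19 and only *Thbs2* was called, and without CTL replicate 2 they were 4.46, 2.46, 2.05 and -1.29 and none was called, and *Thbs2* was not called at under 10% mitochondrial UMIs (2.97). The part of the myCAF-like cells, 208 of 333 and 230 of 973 LATS1/2-KO fibroblasts, in the rise cannot be told apart from a change in each cell by this comparison, whereas in iCAF-like cells alone *Thbs2* and *Ecm1* were called and *Tnc* and *Postn* were not. The 2 myCAF-like clusters themselves differed. The *Col1a1*/*Col6a3* cluster (median 2824 and 2929 UMIs) held *Spp1* at 6069 and 1919.6 and *Tnc* at 2293 and 1223 CPM, and the *Postn*/*Col3a1* cluster (median 8993 and 10403) held them at 741 and 352 and 1065 and 786. *Sparc* showed the reverse order, with 7958 and 6743 and 14396 and 14865 CPM. Each cluster raised 8 fibroblast markers. The *Col1a1*/*Col6a3* cluster also raised 6 PVL-like, 4 basal and 3 macrophage markers, against 1, 2 and 4 in the *Postn*/*Col3a1* cluster. The part of perivascular or macrophage transcripts in these values was not tested.

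**Figure D2:**
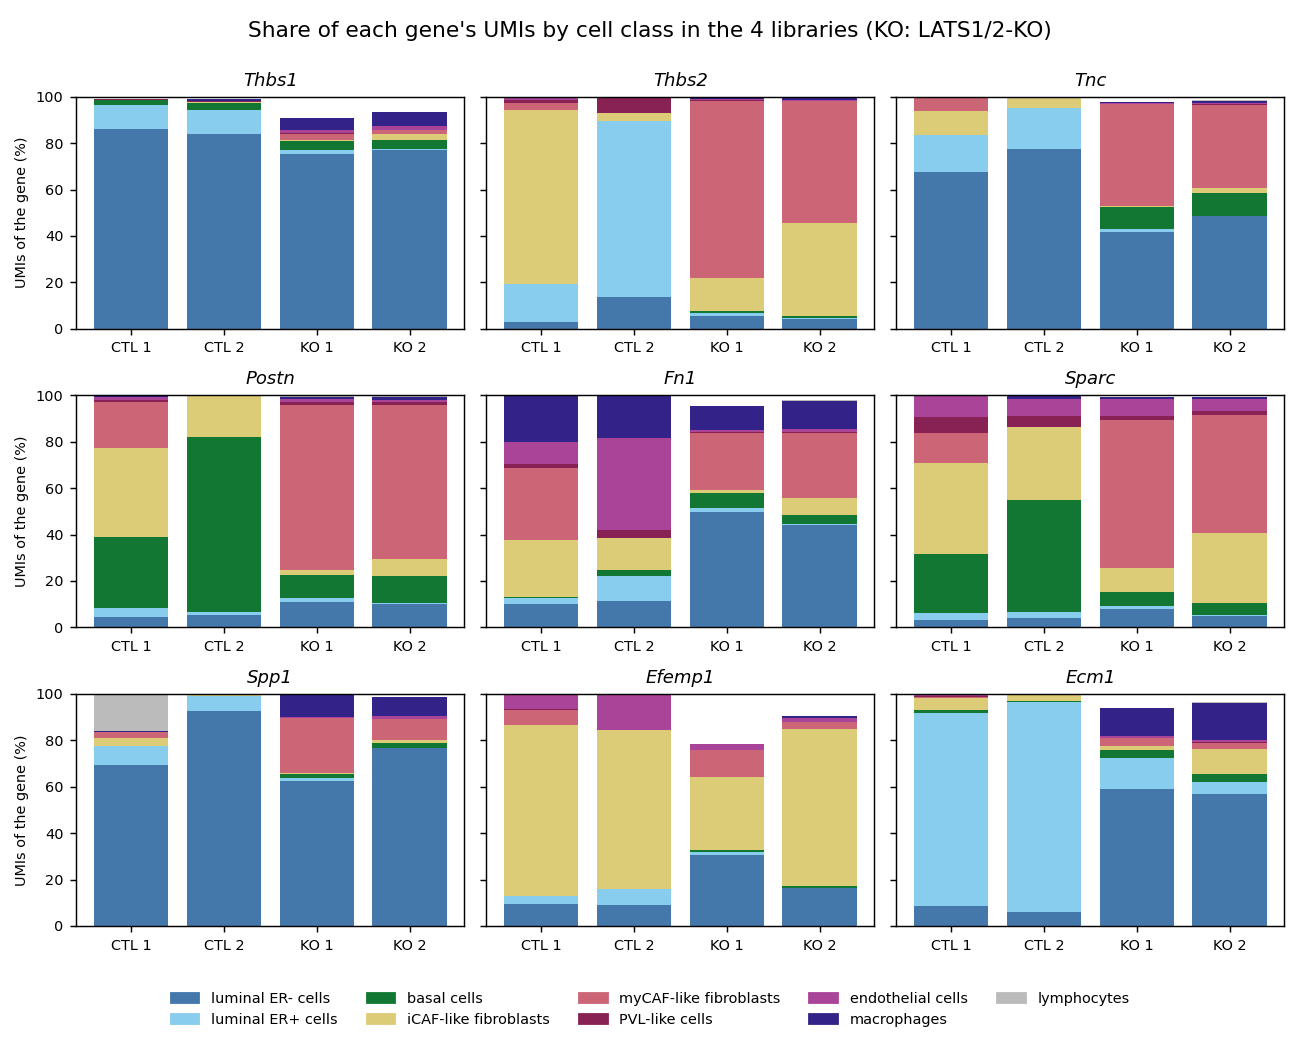
Share of each gene's UMIs (%) held by 9 cell classes in each library, as stacked bars, with unnamed epithelial and adipocyte-like cells as the white rest. In the LATS1/2-KO libraries luminal ER- cells hold the largest share of *Thbs1*, *Fn1*, *Spp1* and *Ecm1*, and myCAF-like cells that of *Thbs2*, *Postn* and *Sparc*.

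Ranked by share, luminal ER- cells were the largest source of *Thbs1*, *Fn1*, *Spp1* and *Ecm1* in both LATS1/2-KO libraries, 4 of the 9 genes. Fibroblasts led for *Thbs2*, *Postn* and *Sparc* (myCAF-like) and *Efemp1* (iCAF-like), and *Tnc* changed its leading class between libraries. Under 10% mitochondrial UMIs, luminal ER- cells led for *Tnc* in both libraries (46.4% and 52.2%) and iCAF-like cells for *Thbs2* in replicate 2 (47.0%). The lead for *Efemp1* in replicate 1 went to luminal ER- cells without the highest Scrublet scores (31.7%) and to basal cells with per-cell marker assignment (41.1%). These shares depend on the numbers of cells that survived dissociation. With per-cell marker assignment only *Spp1* kept luminal ER- cells as its leading class in both libraries, since many LATS1/2-KO luminal cells then counted as basal, and *Thbs1* had 55.4% and 44.4% of its UMIs in the basal class.

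Free RNA set a different limit in each class. From *Col1a1*, *Col1a2* and *Col3a1*, which epithelial cells were taken not to make, free RNA came to 8.76% and 6.76% of the whole-library level in luminal ER- cells, 8.61% and 7.21% in luminal ER+ cells and 12.9% and 10.2% in basal cells of LATS1/2-KO. The CTL values were 5.23% and 3.31% (luminal ER-), 2.91% and 3.26% (luminal ER+) and 27.6% and 33.5% (basal), in libraries with far fewer fibroblasts. If these cells make any collagen, the expectation is too high. A member was called above free RNA where both LATS1/2-KO libraries were at least 2 times over the expectation, and this held for 42 of 81 pairs of gene and class. With free RNA at such small shares in the LATS1/2-KO epithelium, a gene at an even level over all classes would pass too. The share of all genes that pass was not computed, so the count says little about the members.

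Luminal ER- cells passed for *Thbs1* (13.2 and 17.5 times), *Tnc* (7.28 and 11.0), *Fn1* (8.69 and 9.99), *Spp1* (10.9 and 17.3), *Efemp1* (5.32 and 3.73) and *Ecm1* (10.3 and 12.9), and not for *Thbs2*, *Postn* and *Sparc*. With *Dcn*, *Lum* and *Dpt* as the gauge in place of the collagens, *Postn* passed as well in luminal ER- cells, macrophages and lymphocytes, and 45 of 81 pairs passed. In luminal ER+ cells only *Ecm1* passed by either gauge (13.8 and 20.8). *Thbs1* (1.70 and 2.08), *Fn1* (1.87 and 1.97), *Postn* and *Tnc* did not. Basal cells passed for 7 genes, with the highest ratios for *Postn* (14.1 and 17.6) and *Tnc* (13.3 and 14.8), then *Sparc* (8.36 and 7.60), *Fn1* (8.77 and 5.67), *Thbs1* (5.50 and 5.50), *Ecm1* (4.82 and 5.64) and *Spp1*, and not for *Thbs2* and *Efemp1*. Macrophages passed for *Thbs1*, *Fn1*, *Spp1* and *Ecm1*, endothelial cells for *Thbs1* (2.60 and 3.68), *Sparc* (12.4 and 12.3) and *Efemp1* (4.60 and 3.54), and myCAF-like cells for all 9. By the collagens lymphocytes passed for none, and the rises called in them were those of *Postn* (from 0 to 88 UMIs, at least 60.7-fold), *Sparc* (log2 fold change 5.25, adjusted p = 5.05e-05) and *Thbs1* (3.68, adjusted p = 0.00339, edgeR, Benjamini-Hochberg), the last not called without CTL replicate 1 (2.72). *Postn* there stood at 1.33 and 1.55 times the expectation but was still called after subtraction of free RNA (log2 fold change 7.64, edgeR, Benjamini-Hochberg adjusted p = 0.0243), so that free RNA and another source cannot be told apart for it.

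**Figure D3:**
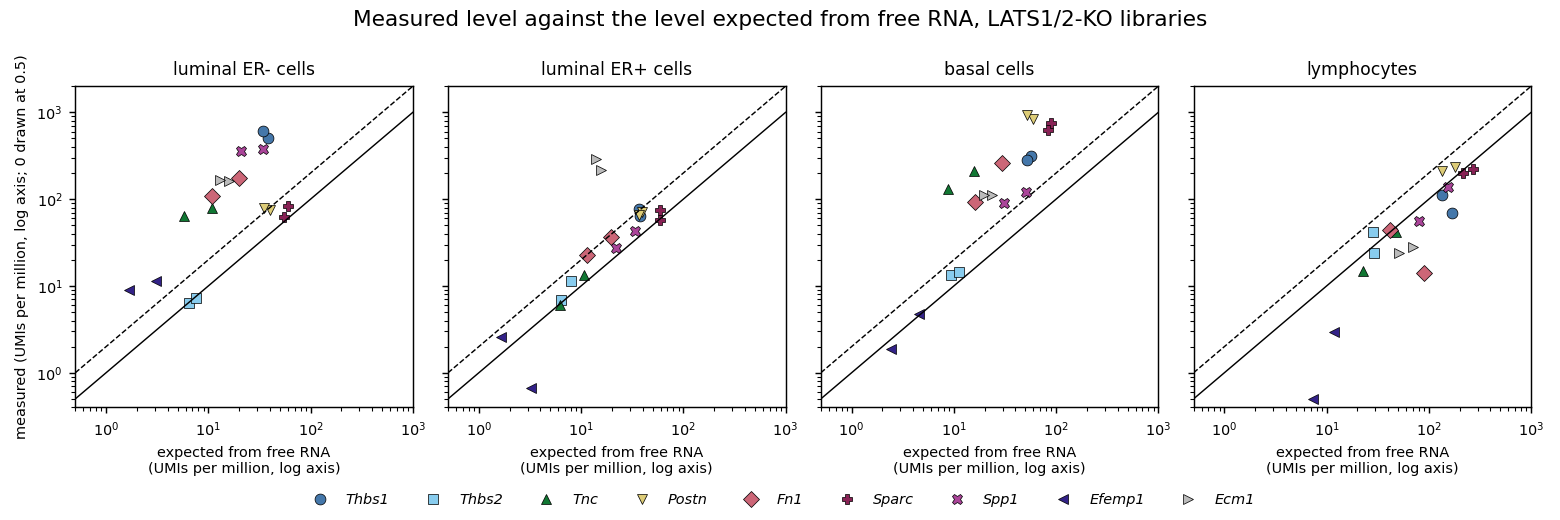
Measured level of each gene (vertical, CPM, log axis, 0 drawn at 0.5) against the level expected from free RNA (horizontal, log axis) in the 2 LATS1/2-KO libraries, with a solid line at equal values and a dashed line at 2 times the expectation. *Thbs2*, *Postn* and *Sparc* of luminal ER- cells and all genes of lymphocytes lie near or under the lines.

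When the expected free RNA was subtracted before testing, 7 of 8 tested members were called in luminal ER- cells (8423 of 13309 genes), 3 of 7 in luminal ER+ cells (2964 of 12240 genes) and 6 of 7 in basal cells (2724 of 8680 genes), where 5 were higher and *Sparc* was lower (log2 fold change -0.88, edgeR, Benjamini-Hochberg adjusted p = 0.00578). In luminal ER+ cells *Thbs2* was no longer called (0.96, edgeR, Benjamini-Hochberg adjusted p = 0.466). *Postn* and *Sparc* stayed called in luminal ER- cells after subtraction (log2 fold changes 6.42 and 4.17, edgeR, Benjamini-Hochberg adjusted p = 5.20e-06 and 0.00315) though their level was under 2 times the expectation in at least 1 library, so that free RNA and transcription cannot be told apart for them. *Fn1*, *Tnc*, *Thbs1*, *Efemp1* and *Ecm1* rose in luminal ER- cells, kept their calls after subtraction and were above free RNA.

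**Figure D4:**
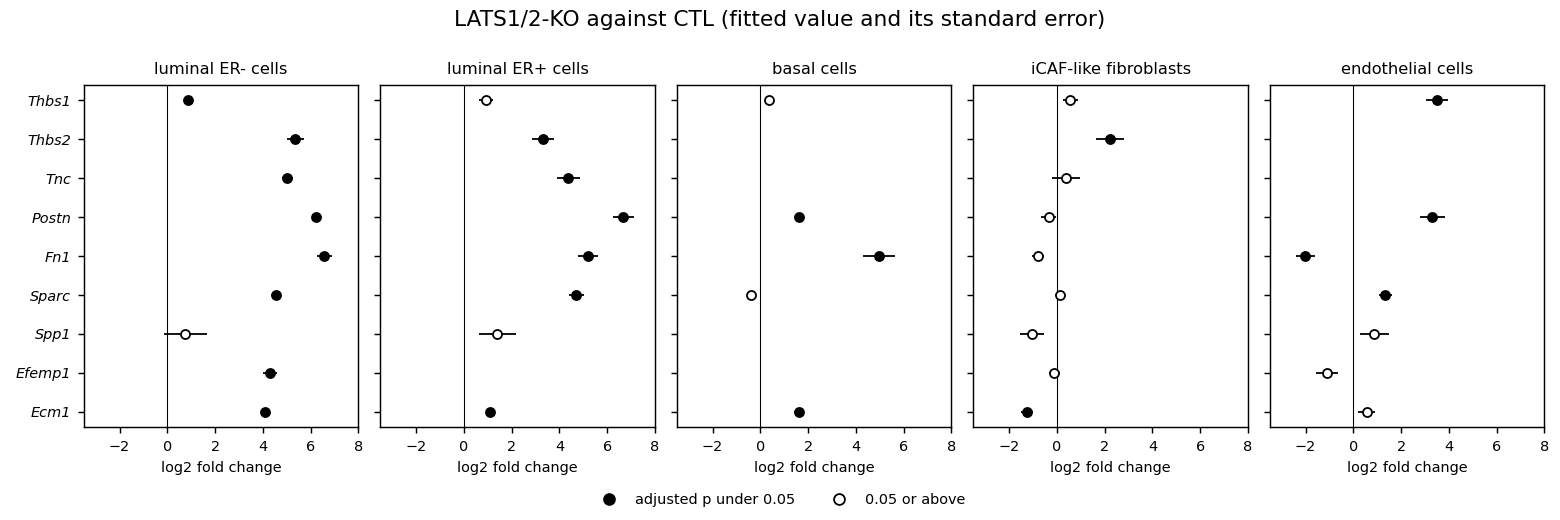
Log2 fold change of LATS1/2-KO over CTL (horizontal) for each gene in 5 tested classes, with its standard error, filled where the adjusted p was under 0.05 (edgeR, Benjamini-Hochberg) and left out at 3 or fewer UMIs in CTL. The points of luminal ER- cells lie right of 0, whereas *Fn1* of endothelial and *Ecm1* of iCAF-like cells lie left of it.

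Whether the effect differed between lineages was tested directly, with the mouse as block. The *EYFP* level was lower in LATS1/2-KO luminal ER+ and basal cells than in luminal ER- cells. Its part in the differences was not tested. Between luminal ER- and luminal ER+ cells 3 of 9 members differed, where 27.4% of 14135 genes did, all with the larger rise in luminal ER- cells. They were *Ecm1* (difference in log2 fold change 2.91, edgeR adjusted p = 1.42e-06), *Thbs2* (1.92, adjusted p = 0.0376) and *Fn1* (1.33, adjusted p = 0.0187; Benjamini-Hochberg). The *Fn1* difference was 0.59 and not called without CTL replicate 2, and not called at 1.42 without LATS1/2-KO replicate 1, whereas *Thbs2* was lost without CTL replicate 1 (1.83), CTL replicate 2 (2.12) or LATS1/2-KO replicate 1 (1.68). Between luminal ER- and basal cells 6 of 9 differed, where 26.5% of 13771 genes did. The log2 fold change was higher in luminal ER- cells for *Sparc* (4.74), *Postn* (4.45), *Ecm1* (2.29) and *Thbs1* (0.37). Of these, *Sparc* and *Postn* stand on luminal values near free RNA, and *Sparc* was lower, not higher, in both LATS1/2-KO basal libraries (not called). It was higher in basal cells for *Tnc* and *Spp1*, which had 0 and 2 UMIs in CTL basal cells, so that their fitted values are no bound. Of this pair *Spp1* was under 2 times luminal free RNA in LATS1/2-KO basal cells. Adjusted p-values of the 6 differences went from 1.61e-63 for *Sparc* to 0.0295 for *Thbs1* (edgeR, Benjamini-Hochberg). *Thbs1* was not called without a low-count filter (0.35), at 0.24 without CTL replicate 2 or 0.29 without LATS1/2-KO replicate 2 and was 0.66 without LATS1/2-KO replicate 1, *Tnc* was not called without CTL replicate 2 (-8.85) and *Spp1* was -9.95 there. Without the mouse as block *Fn1* (1.27) and *Thbs2* (1.97) were no longer called against luminal ER+ cells, nor *Thbs1* (0.36), *Tnc* and *Spp1* against basal cells.

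*EYFP*+ cells, with at least 1 *EYFP* UMI, were compared with *EYFP*- cells among LATS1/2-KO luminal ER- cells of the same mouse, since the reporter marks cells in which Cre was active. There were 539 *EYFP*+ and 1957 *EYFP*- cells in replicate 1 and 704 and 1934 in replicate 2, with median depths of 13677 and 6743 and of 15382 and 6698 UMIs, so that shallow cells fall more often in the *EYFP*- group. Of the 9 members 8 were called, 4 in each direction, where 41.9% of 12843 genes were called. *Efemp1* stood at 16.5 and 20 CPM in *EYFP*+ and 5.16 and 5.49 in *EYFP*- cells of replicates 1 and 2, and *Fn1* at 259.7 and 149 and 134 and 80.1. Both were higher in *EYFP*+ cells of each mouse (log2 fold changes 1.77 and 0.91, edgeR, Benjamini-Hochberg adjusted p = 9.12e-14 and 3.35e-16). *Tnc*, at 90.5 and 80.2 against 72.4 and 52.6 CPM, and *Thbs1*, at 603 and 687 against 457 and 549.7, were higher as well (log2 fold changes 0.45 and 0.35, edgeR, Benjamini-Hochberg adjusted p = 6.80e-06 and 7.77e-07).

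*Spp1* went the other way, at 186 and 117 CPM in *EYFP*+ and 467 and 526 in *EYFP*- cells (log2 fold change -1.76, edgeR, Benjamini-Hochberg adjusted p = 8.97e-22), lower in both mice. The 3 genes under 2 times the collagen-based expectation in at least 1 library were lower in *EYFP*+ cells too, *Postn* at 55.0 and 61.7 against 86.1 and 92.4, *Sparc* at 78.1 and 53.7 against 87.4 and 68.8 and *Thbs2* at 5.31 and 4.54 against 6.97 and 9.07 CPM (log2 fold changes -0.62, -0.27 and -0.74, edgeR, Benjamini-Hochberg adjusted p = 5.19e-09, 0.00468 and 0.00194). The collagen transcripts used to gauge free RNA moved with them, at 174 and 138 CPM in *EYFP*+ and 215 and 216 in *EYFP*- cells. *Ecm1* did not differ past the threshold, at 160.04 and 167 and 165 and 169 CPM (log2 fold change -0.05, edgeR, Benjamini-Hochberg adjusted p = 0.581). The *EYFP*+ share differed between clusters, with 39.1% and 55.9% of cells in *Ankrd1*/*Ube2c* and 6.81% and 9.56% in *Wfdc3*/*Wfdc18*. It lay between these in *Ptgs2*/*Msln*, the luminal ER- cluster with the highest *Fn1*, *Tnc* and *Thbs1*. Cluster and reporter therefore cannot be told apart in this comparison. Without the mouse as block 3 members were called, *Efemp1*, *Spp1* and *Postn*. The *Thbs2* call was also lost with DESeq2 (log2 fold change -0.70) and with cells thinned to 2000 UMIs (-0.71), and that of *Sparc* with DESeq2 (-0.26).

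Other matricellular and glycoprotein genes moved in the same classes. Of 50 such genes (thrombospondins, CCN proteins, fibulins, fibrillins, matrilins, latent TGF-beta binding proteins, galectins and others), 38 were tested in luminal ER- cells, 27 rose and 6 fell, where 33.5% of all genes rose and 30.8% fell, with a median log2 fold change of 2.89 against 0.01 over all genes. Only 11 of the 27 were above free RNA. *Lgals1*, encoding galectin-1 (10.3 ± 1.18 CPM in CTL and 932 ± 215 in LATS1/2-KO, log2 fold change 6.14, edgeR adjusted p = 3.60e-06, Benjamini-Hochberg), and *Ctgf*, a CCN protein (12.6 ± 3.24 CPM in CTL and 696 ± 209 in LATS1/2-KO, log2 fold change 5.41, edgeR adjusted p = 8.56e-06, Benjamini-Hochberg), were at least 11.9 and 13.2 times over the expectation, whereas *Mfap5*, a microfibril gene that rose as well (log2 fold change 5.72, edgeR adjusted p = 2.68e-05, Benjamini-Hochberg), was at 0.980 times in its lower library. The basement membrane gene *Smoc2* and the fibrillin gene *Fbn2* fell (log2 fold changes -3.41 and -3.55, edgeR, Benjamini-Hochberg adjusted p = 0.000139 and 0.000319), as did *Matn4* (-1.20, adjusted p = 0.0139). In luminal ER+ cells 20 of 31 rose and 1 fell (14.1% and 13.2% of all genes, median 2.62 against -0.01), and 5 of the 20 were above free RNA. There *Mfap5* and *Fstl1* were among the largest values (log2 fold changes 5.98 and 5.64, edgeR, Benjamini-Hochberg adjusted p = 0.00125 and 0.000978), both under 2 times the expectation, and *Matn4* fell (log2 fold change -1.74, edgeR adjusted p = 0.00386, Benjamini-Hochberg).

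In basal cells 10 of the 28 tested list genes rose and 8 fell (16.6% and 16.3% of all genes, median 0.56 against 0.00), 9 of the 10 above free RNA. *Lgals3*, encoding galectin-3 (log2 fold change 4.88, edgeR adjusted p = 5.55e-08), and the elastic fibre gene *Fbln5* (log2 fold change 4.10, edgeR adjusted p = 1.70e-05; Benjamini-Hochberg) rose, as did *Tgfbi*, which had 0 UMIs in CTL. The elastic fibre genes *Eln* and *Ltbp2* and the fibulin gene *Fbln7* fell (log2 fold changes -2.46, -2.47 and -2.73, edgeR, Benjamini-Hochberg adjusted p = 5.78e-06, 4.45e-08 and 5.62e-05), so that elastic fibre genes went in both directions. Among iCAF-like cells 3 of 38 rose and 9 fell (5.47% and 7.57% of all genes, median -0.27 against 0.02). *Wisp2*, *Lgals3* and *Eln* rose (2.28, 2.05 and 1.18), *Lgals3* at 1.88 times free RNA, and *Thbs4*, *Nid2* and *Matn2* fell (-4.44, -3.84 and -3.04; edgeR, Benjamini-Hochberg adjusted p between 0.000207 and 0.0132). Over all fibroblasts 5 of 41 rose, *Fbln2*, *Eln* and *Fbn1* most (2.35, 2.33 and 2.21), and 6 fell, *Nid2*, *Tgfbi* and *Thbs4* most (-2.88, -2.63 and -2.38), where 1.59% of all genes rose and 1.91% fell, with a median of 0.27 against 0.08. Most of these 5 rises were not called without CTL replicate 1, and far fewer genes passed when either CTL library was left out. Endothelial cells had 5 of 22 higher and 2 lower (3.16% and 3.67% of all genes, median -0.15 against 0.02), with *Lgals3* higher and *Mgp*, encoding matrix Gla protein, lower (log2 fold changes 2.41 and -1.11, edgeR, Benjamini-Hochberg adjusted p = 0.000177 and 0.0234), and with *Wisp2*, *Mfap5* and *Comp* called on 3 or fewer UMIs in one group. Of these calls 3 higher and 1 lower were not above free RNA. None remained without a low-count filter, where 0 genes passed, or when either CTL library was left out. Lymphocytes had 3 of 6 higher (*Mfap5*, *Fbln2*, *Igfbp7*), none above free RNA, where 1.30% of all genes rose, with a median of 2.27 against 0.00, and *EYFP*+ cells had 7 of 37 higher and 14 lower (20.3% and 21.6% of all genes, median -0.38 against -0.01).

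A second list of 20 genes held receptors of the members (integrin chains, syndecans, *Cd36*, *Cd44*, *Cd47*, *Lrp1* and *Stab1*) and the collagen receptor gene *Ddr2*. In luminal ER- cells 10 of 19 rose and 5 fell (33.5% and 30.8% of all genes, median 1.29 against 0.01), and 7 of the 10 were above free RNA. The integrin genes *Itga3* (9.11 ± 0.0343 CPM in CTL and 113 ± 5.78 in LATS1/2-KO, log2 fold change 3.27, edgeR adjusted p = 2.81e-06, Benjamini-Hochberg) and *Itga5* (0.388 ± 0.170 CPM in CTL and 4.24 ± 0.580 in LATS1/2-KO, log2 fold change 3.103, edgeR adjusted p = 0.000268, Benjamini-Hochberg), whose products pair with the beta 1 chain to bind laminins and fibronectin, rose. *Ddr2*, a collagen receptor gene called on 3 UMIs in CTL, was at 0.614 times free RNA. *Itgb8*, *Itgav* and the syndecan gene *Sdc4* fell (-0.87, -0.76 and -0.66, edgeR, Benjamini-Hochberg adjusted p = 0.000897, 0.000264 and 0.00109). In luminal ER+ cells 6 of 17 rose and 2 fell (14.1% and 13.2% of all genes, median 0.37 against -0.01), with *Itgb3* (4.65), *Sdc1* (2.94) and *Itga3* (1.82) at the upper end and *Lrp1* (-0.84) and *Sdc4* (-0.37) at the lower. Basal cells had 7 of 17 higher and *Itga9* lower (-1.45; 16.6% and 16.3% of all genes, median 0.75 against 0.00), with *Sdc1* (log2 fold change 2.62, edgeR adjusted p = 2.80e-07) and the osteopontin and hyaluronan receptor gene *Cd44* (log2 fold change 2.32, edgeR adjusted p = 1.23e-06; Benjamini-Hochberg) both higher, and *Itgb6*, with 1 UMI in CTL, at 1.51 times free RNA.

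In the other classes few receptor genes passed. Over all fibroblasts *Itga5* rose (log2 fold change 2.42, edgeR adjusted p = 0.0271, Benjamini-Hochberg) as the only one of 16 (1.59% of all genes rose, median 0.65 against 0.08), and in iCAF-like cells *Itgb5* fell (log2 fold change -1.05, edgeR adjusted p = 0.0351, Benjamini-Hochberg) as the only one of 10 (7.57% of all genes fell, median 0.36 against 0.02). Far fewer genes passed over all fibroblasts when either CTL library was left out, so that the *Itga5* call is not secure. Endothelial *Stab1*, a scavenger receptor gene, and *Cd36*, the thrombospondin receptor gene, rose (1.34 and 1.11, edgeR, Benjamini-Hochberg adjusted p = 0.0126 and 0.00643), 2 of 14 (3.16% of all genes, median 0.38 against 0.02). Both calls were lost without a low-count filter, where 0 genes passed, and when either CTL library was left out. Of the 7 receptor genes tested in lymphocytes all missed the threshold (1.71% of all genes passed, median 0.34 against 0.00). *EYFP*+ cells had 4 of 18 higher and 7 lower (20.3% and 21.6% of all genes, median -0.17 against -0.01).

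Across 30 sums of a class and a library with at least 20 cells, the genes whose log2(CPM + 1) was most like each member were taken from 8800 genes. The highest Pearson correlation, given as a description over sums that share libraries and classes, was with *Fstl1* for *Sparc* (r = 0.981), with *Loxl2* for *Thbs2* (r = 0.943), with *Col6a1* for *Postn* (r = 0.929) and with *Flrt2* for *Efemp1* (r = 0.910). It was 0.892 with *Nkd2* for *Tnc*, 0.876 with *Col5a2* for *Fn1*, 0.839 with *Cndp2* for *Ecm1*, 0.809 with *Tubb6* for *Thbs1* and 0.717 with *Tnc* for *Spp1*. Among the members, *Postn* and *Sparc* were most alike (r = 0.871) and *Thbs1* and *Efemp1* least (r = 0.101).

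The 9 genes lie on 7 chromosomes in the gene models of GRCm38 (GENCODE M21), with *Postn* and *Ecm1* on chromosome 3 and *Sparc* and *Efemp1* on chromosome 11, among them *Thbs1* at chr2:118111876-118127133, *Fn1* at chr1:71585520-71653200 and *Tnc* at chr4:63959785-64047015. *Apol7d* overlaps *Fn1* and *Gm29233* overlaps *Thbs1* on the opposite strand, and whether the counting used strand is not given in the sources used here. For 7 members a promoter was matched by symbol in RefSeq (GRCm38.p6), 10 promoters in all, and the 250 bases before the start were searched on both strands for GGAATG, the core bound by TEAD factors, and TGANTCA, the AP-1 site. GGAATG was in none of the 10, against 12.6% of 32851 promoters of the same length, and TGANTCA was in 2, against 6.75%. *Thbs1* and *Fn1* had no entry. *Tnc*, which rose in luminal ER- cells above free RNA like *Efemp1* and *Ecm1*, had no match in its 2 promoters. The 2 sequences with a match are shown. Capitals mark TGANTCA, which starts 154 bases before the start in *Efemp1* (chr11:28852955-28853204, plus strand) and 64 before it in *Ecm1* (chr3:95739570-95739819, minus strand). A match describes these letters and shows no binding.
Efemp1: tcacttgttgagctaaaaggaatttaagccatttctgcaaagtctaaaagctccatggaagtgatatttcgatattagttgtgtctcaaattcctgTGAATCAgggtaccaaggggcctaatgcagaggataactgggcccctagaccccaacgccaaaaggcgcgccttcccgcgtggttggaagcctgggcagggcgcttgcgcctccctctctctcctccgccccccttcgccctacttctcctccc
Ecm1: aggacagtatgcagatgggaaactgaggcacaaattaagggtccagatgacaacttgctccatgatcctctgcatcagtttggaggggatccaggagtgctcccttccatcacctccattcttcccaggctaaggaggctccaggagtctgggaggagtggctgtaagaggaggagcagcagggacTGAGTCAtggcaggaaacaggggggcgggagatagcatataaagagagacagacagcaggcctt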

How the data were processed

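Filtered count tables of 4 libraries were used as deposited. The processing notes name mm10 and Cell Ranger 3.1.0, whereas the headers of the tables name Cell Ranger 6.1.2. Cells with 500 or fewer genes, or with 20% or more of their UMIs from mitochondrial genes, were removed. Doublets were not removed, Scrublet called 68 cells by its own threshold, and an alternative left out the 676 cells with the highest scores. Clusters came from Seurat 5.3.0 with sctransform 0.4.2 (3000 variable genes less the 9 members, 20 components, resolution 0.4, and 0.8 for stromal subtypes) and were named by at least 3 markers raised 2 times. Sums of each class and library went into quasi-likelihood tests of edgeR 4.0.16 (filterByExpr, TMM factors) with Benjamini-Hochberg adjustment over all genes. Levels of different classes were not tested against each other, since clusters were drawn on expression. Free RNA was gauged from collagen transcripts, and outside the epithelium also from keratin and milk transcripts, and the larger was used. The members and both gene lists were chosen with earlier results of these data known. The luminal free RNA estimate in basal cells and the setting without the *Ptgs2*/*Msln* cluster are later additions, made with the data known.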

Additional observations from a re-analysis of the deposited data

Results flagged for a closer look

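Of the 18 tested differences between lineages in the effect of LATS1/2-KO, 9 passed the threshold and were flagged for that reason (edgeR with the mouse as block, Benjamini-Hochberg over all genes). They were 3 of 9 against luminal ER+ cells, where 27.4% of 14135 genes passed, and 6 of 9 against basal cells, where 26.5% of 13771 genes passed. A positive value means a higher log2 fold change in luminal ER- cells. Against luminal ER+ cells the difference in log2 fold change was 2.91 for *Ecm1* (adjusted p = 1.42e-06), 1.92 for *Thbs2* (adjusted p = 0.0376) and 1.33 for *Fn1* (adjusted p = 0.0187). Against basal cells it was 4.74 for *Sparc* (adjusted p = 1.61e-63), 4.45 for *Postn* (adjusted p = 6.67e-46), 2.29 for *Ecm1* (adjusted p = 4.49e-12), 0.37 for *Thbs1* (adjusted p = 0.0295), -9.17 for *Tnc* (adjusted p = 0.00182) and -5.48 for *Spp1* (adjusted p = 5.22e-21). The smallest of these p-values rest on a spread pooled over genes and 2 mice in each group. The values of *Tnc* and *Spp1* depend on the prior count, since CTL basal cells held 0 and 2 UMIs. *Thbs2*, *Postn* and *Sparc* were not above free RNA in luminal ER- cells by the collagens, and *Ecm1* was above it in all 3 epithelial lineages of LATS1/2-KO. In luminal ER+ cells *Fn1* was not above it (1.87 and 1.97 times the expectation). Without the mouse as block *Fn1* and *Thbs2* were not called against luminal ER+ cells, nor *Thbs1*, *Tnc* and *Spp1* against basal cells. Calls lost with a library left out are given above.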

How the results depend on the processing

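With 2 mice a group, leaving out 1 library leaves a lone sample that is assumed to vary like the other group. Members called then ranged over 8 to 9 in luminal ER- cells, 6 to 8 in luminal ER+ cells, 5 to 7 in basal cells, 0 to 9 in all fibroblasts, 1 to 3 in iCAF-like cells, 0 to 3 in endothelial cells, 2 to 5 in lymphocytes, 1 to 4 for luminal ER- against luminal ER+ cells and 4 to 7 for luminal ER- against basal cells. Genes called ranged, in the same order, over 7306 to 8481, 1515 to 3141, 1558 to 2505, 13 to 586, 206 to 566, 0 to 256, 64 to 206, 1860 to 3624 and 2341 to 2679.
Of the other settings, DESeq2 called 1528 genes in basal, 383 in iCAF-like and 270 in endothelial cells, 42 in lymphocytes and 1797 for *EYFP*, and 1 member in iCAF-like cells. Without a low-count filter, all fibroblasts gave 8 members and 912 genes, endothelial cells 0 and 0, and lymphocytes 5 and 187. The replicate number as block, which is only a number shared by the labels (correlations of -0.0459 to 0.0761), gave 9 members and 876 genes in all fibroblasts and 123 genes in lymphocytes. Assignment by markers in each cell gave 5645 genes in basal cells, 211 in lymphocytes and 1 member with its largest UMI share in luminal ER- cells. With free RNA subtracted, luminal ER+ cells gave 3 members and lymphocytes 1 member and 6 genes. Without the mouse block, *EYFP* gave 3 members and 686 genes, luminal ER- against luminal ER+ cells 1 member and against basal cells 3, and thinned cells gave 2613 genes for *EYFP*.
Some directions turned. When 1 library was left out, log2 values ranged for *Spp1* over -0.16 to 3.68 in luminal ER- cells, -0.14 to 4.39 in endothelial cells and -1.66 to 7.18 in lymphocytes, and in iCAF-like cells over -0.77 to 0.54 for *Postn*, -0.0368 to 0.486 for *Sparc* and -0.0242 to 0.0194 for *Efemp1*. The difference between luminal ER- and luminal ER+ cells ranged over -1.87 to 0.0503 for *Postn*, -0.65 to 0.12 for *Sparc* and -0.83 to 0.28 for *Spp1*, and that against basal cells over -0.29 to 2.31 for *Fn1*. *Spp1* turned in luminal ER+ cells with free RNA subtracted (-0.34) and in lymphocytes with the replicate block (0.41), and *Postn* with marker assignment in basal (-0.50) and iCAF-like cells (0.0444). *Efemp1* turned in iCAF-like cells with no filter (0.0738), marker assignment (0.0152) and free RNA subtracted (0.0494), and *Ecm1* by *EYFP* in thinned cells (0.11). The cause was not tested. Of results under other alternatives 533 stayed the same, 25 were weaker, 29 stronger and 8 reversed, and with a library left out 232, 28, 16 and 10. Subtraction of free RNA was not run in endothelial cells, where the estimate passed 100% in 1 library. Depth limits *Tnc*, *Thbs2* and *Efemp1* in CTL, with 0 UMIs in basal cells.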
